A study of Homo sapiens with 12 samples.

Results

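Chromatin accessibility was examined at 9 genes of ribosome production in G401, an established rhabdoid tumour cell line that lacks both copies of SMARCB1: RPL3, RPL5 and RPL11 of the large ribosomal subunit, RPS3, RPS6, RPS14 and RPS19 of the small subunit, and the nucleolar proteins NCL (nucleolin) and NPM1 (nucleophosmin). The genes were a given list, and the data at each were the accessible regions that overlapped the gene or its 5 kb flanks on the GRCh37 build. These 9 windows held 45 of the 187088 regions found in the whole series, and 12 of the 18114 regions that had a peak in every library.

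The assay was ATAC-seq, which reads open DNA from where a transposase can cut it, and the data were 12 lists of peaks called from nucleosome-free fragments, 1 list per library. All cells carried the SMARCB1 -/- genotype and received doxycycline for 24 h, which induced GFP in 2 of the groups and SMARCB1, a core member of the SWI/SNF family of chromatin remodellers, in the others. During that time the cells were given DMSO, the vehicle, or dBRD9-A, a degrader of BRD9, which belongs to a noncanonical form of SWI/SNF. The 4 groups were GFP DMSO, GFP dBRD9-A, SMARCB1 DMSO and SMARCB1 dBRD9-A, with 3 libraries each, so every comparison was made within doxycycline-treated cells of 1 line. Nothing in the labels says whether the replicates were separate cultures, so p-values measure only the spread between these libraries, which may be technical.

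Ribosomal protein genes encode the structural proteins of the ribosome, and most of them begin transcription at a C within a short run of pyrimidines, from which the 5′ terminal oligopyrimidine tract of their messages comes. MYC is known to raise the transcription of ribosomal protein genes and of NCL and NPM1, and SMARCB1 is known to interact with MYC. Nucleolin acts in the transcription and processing of ribosomal RNA, and nucleophosmin acts in ribosome assembly and export. Neither MYC binding nor RNA was measured in these libraries, so the MYC-target label of the genes could not be checked against the data.

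Promoter sequences were taken from the RefSeq promoter table of GRCh38.p14, which held 11 entries for 8 of the 9 members (RPL11, RPS19 and NPM1 had a pair of annotated starts each) and 35116 promoters in all. The 6 promoters shown are of members on which the results turn. RPS14 was called, RPS3 and NPM1 had the weakest and strongest start-site regions, and RPL3 and RPL11 carry the ETS core near the start. RPS19 had no region over the 5′ end of its given interval. The RefSeq starts are of another build and were not placed on GRCh37. Each line runs from 60 bases before the annotated start to the 12 bases that begin at it, and capitals mark the pyrimidine run at the start and matches to the searched motifs.
RPL3, chr22:39319612-39319683, minus strand: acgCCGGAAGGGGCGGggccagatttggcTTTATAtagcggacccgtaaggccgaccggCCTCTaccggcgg
RPL11, chr1:23691746-23691817, plus strand: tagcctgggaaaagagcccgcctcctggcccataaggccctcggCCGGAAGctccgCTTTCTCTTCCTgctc
RPS3, chr11:75399458-75399529, plus strand: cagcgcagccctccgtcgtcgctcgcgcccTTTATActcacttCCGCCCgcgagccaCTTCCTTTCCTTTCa
RPS14, chr5:150449728-150449799, minus strand: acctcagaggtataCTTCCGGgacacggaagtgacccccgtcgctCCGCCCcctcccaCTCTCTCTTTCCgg
RPS19, chr19:41860195-41860266, plus strand: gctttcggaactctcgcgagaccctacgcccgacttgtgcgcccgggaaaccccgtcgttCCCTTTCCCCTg
NPM1, chr5:171387789-171387860, plus strand: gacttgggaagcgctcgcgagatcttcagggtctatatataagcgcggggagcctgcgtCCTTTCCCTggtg

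The motifs were searched over 250 bases before to 50 bases after each start, on both strands, and a match describes letters only. A pyrimidine run of at least 5 bases that began with C within 5 bases of the start was found in 9 of the 11 member promoters, against 21.1% of all promoters. It was 14 bases long at RPS3, 12 bases at RPS14 and at the RPL11 start shown, and 4 bases at NCL. The E-box CACGTG, the sequence that MYC with MAX is known to bind, was found in 1 of the 11, at the RPS19 start that is not shown, against 7.26% of all. The ETS core CCGGAAG was found in 5 of the 11 (RPL3, both RPL11 starts, RPS6 and RPS14), against 10.3% of all. The SP1 core GGGCGG was found in 6 against 45.0% of all, the TATA box TATAAA in 2 (RPL3 and RPS3) against 11.5%, and the YY1 core GCCATC in 2 (RPL3 and RPS3) against 12.9%. The ETS and SP1 matches of RPL3 lie side by side in the sequence above, and the YY1 matches lie past the printed bases.

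Depth was read from the lists, since read totals are not in them. The lowest background pileup of a list, which scales with the number of fragments, was between 0.0383 and 0.0784 fragments in the GFP libraries and between 0.0487 and 0.111 in the SMARCB1 libraries. The GFP lists held 33428 to 50089 peaks and the SMARCB1 lists 71169 to 96572. At the genome position of the SMARCB1 gene, 3 regions had a peak in all 6 SMARCB1 libraries and no region had a peak in any GFP library. Whether this signal came from the gene or from the induced SMARCB1 was not tested.

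The start of a member was taken as the 5′ end of its given GRCh37 interval. A peak lay over this start in all 12 libraries for 7 of the 9 members. At RPS14 the merged region that spans the start had a peak in all 12 libraries, but a peak over the start itself was in 7 of them, and RPS19 had none over its start. The 8 regions other than that of RPS19 are called start-site regions below. The strength of a region in a library is given as its summit pileup, the number of fragments that overlap at the highest point of the peak, recovered from the fold and the p-value in the lists. This is a height at 1 position and does not depend on the length of the gene. For comparison between libraries it was divided by the geometric mean summit pileup of the same library over the 18114 regions shared by all 12 lists, and it is then called the scaled pileup. A lower value in a bulk library cannot tell fewer cells with an open site from less opening per cell.

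Among the start-site regions, those of the nucleolar genes were the strongest and that of RPS3 the weakest. RPS14 was ranked by a summit upstream of its start. Its separate start peak had 6 to 13 fragments in 6 libraries. Ranked among the 18114 shared regions of the same library, NPM1 lay at percentile 96.1 ± 2.74 (SD, n = 12 libraries) and NCL at 94.1 ± 3.02. RPL11 (78.0 ± 13.1), RPS6 (74.5 ± 8.28), RPS14 (73.1, from 46.5 to 86.6 over libraries), RPL5 (71.9 ± 10.7) and RPL3 (63.0 ± 15.4) followed, and neighbours in this order differed by less than 1 SD. RPS3 lay at percentile 14.5 ± 9.49, and its highest library, at 32.1, was below the lowest library of every other start-site region.

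**Figure D1:**
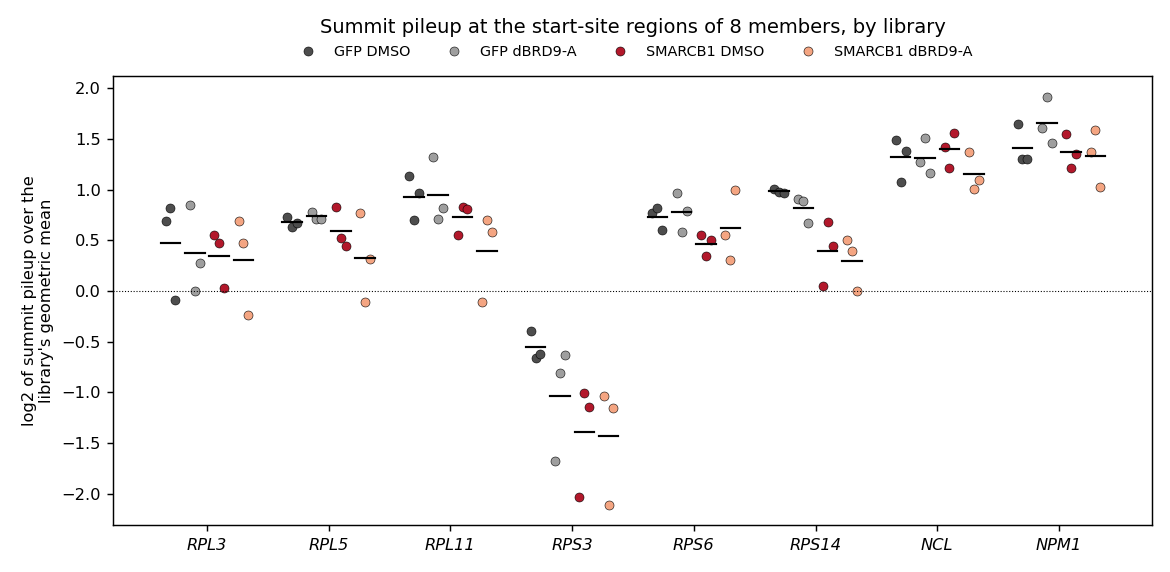
Scaled summit pileup on a log2 scale (y axis; 0 is the geometric mean of the library over the 18114 shared regions) at the start-site regions of the 8 members that had one in all lists (x axis). Each point is 1 of the 12 libraries, coloured by group, and each bar is the mean of 3 libraries. NCL and NPM1 lie above 1 in every library and RPS3 lies below 0 in every library. At RPL11, RPS3 and RPS14, 6 of 6 SMARCB1 libraries lie below the GFP median. The RPS14 values are from a summit upstream of its start.

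Among the large-subunit genes, RPL3, the protein near the peptidyl transferase centre, had a start-site region of 341 bp at chr22:39715602-39715942. Its summit pileup was 36, 25 and 13 fragments in the GFP DMSO libraries, 23, 14 and 28 with GFP dBRD9-A, 24, 25 and 18 with SMARCB1 DMSO and 33, 18 and 17 with SMARCB1 dBRD9-A. The groups overlapped, and the SMARCB1 mean was 0.09 below the GFP mean on the log2 scale (SE 0.19, limma adjusted p = 0.81).

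RPL5 and RPL11, which together with 5S ribosomal RNA can bind MDM2, had start-site regions of 306 bp at chr1:93297419-93297724 and 267 bp at chr1:24018077-24018343. RPL5 had summit pileups of 37, 22 and 22 in GFP DMSO, 22, 23 and 38 in GFP dBRD9-A, 29, 26 and 24 in SMARCB1 DMSO and 35, 12 and 25 in SMARCB1 dBRD9-A. RPL11 had 49, 23 and 27, then 32, 23 and 41, then 24, 32 and 31, then 19, 21 and 30 in the same order of groups. All 6 SMARCB1 libraries lay below the GFP median at RPL11 on the scaled values, though the groups overlapped. The difference of SMARCB1 minus GFP was a log2 value of -0.38 at RPL11 (SE 0.15, limma adjusted p = 0.10) and -0.24 at RPL5 (SE 0.15, limma adjusted p = 0.33), so neither passed the threshold of 0.05.

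The only start-site region called between GFP and SMARCB1 cells on the scaled pileup was that of a small-subunit gene, RPS14. The value there came from a site upstream of the start. With scaling by the background pileup all 8 start-site regions were called lower, as were 12254 of all 18114 shared regions. With covered bases 0 of the 8 were called, where 757 of the 18114 were called higher and 356 lower. RPS14, the gene whose loss is known from 5q- syndrome, had summit pileups of 45, 28 and 27 in GFP DMSO, 24, 26 and 37 in GFP dBRD9-A, 17, 29 and 24 in SMARCB1 DMSO and 29, 17 and 20 in SMARCB1 dBRD9-A. On the scaled values these were 2.01, 1.97 and 1.95, then 1.88, 1.85 and 1.60, then 1.04, 1.61 and 1.36, then 1.42, 1.32 and 0.997 in the same order of groups. The mean scaled pileup was 1.98 ± 0.030 (SD, n = 3) in GFP DMSO, 1.78 ± 0.16 in GFP dBRD9-A, 1.33 ± 0.28 in SMARCB1 DMSO and 1.24 ± 0.22 in SMARCB1 dBRD9-A. All 6 SMARCB1 libraries lay below the GFP median, and the groups met only at their edges, with a lowest GFP value of 1.60 and a highest SMARCB1 value of 1.61.

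The RPS14 region fell by 0.56 on the log2 scale with SMARCB1 (95% confidence interval -0.86 to -0.26, SE 0.15, limma adjusted p = 0.0081), a scaled pileup that fell by 32.1%. Of all 18114 shared regions, 4.75% were called lower and 8.16% higher in this comparison, and 1 lower and 0 higher calls among the 12 shared regions of the windows are near that background for the lower calls and below it for the higher ones, so the count is not a result about the list. The call held in all 12 fits that left out 1 library, with limma adjusted p-values from 0.0051 to 0.043, and was lost when the bases covered by peaks were used in place of the pileup (-0.16, limma adjusted p = 0.73). Within a single treatment the difference was -0.59 in DMSO (limma adjusted p = 0.097) and -0.53 in dBRD9-A (limma adjusted p = 0.15). Of the 12 regions 0 were called in either, where 5.38% and 6.06% of all shared regions were called, and 2 and 3 of the 12 had an unadjusted p under 0.05, where 3214 and 3176 of the 18114 had. The 2 in DMSO were RPS14 and RPS3 (-0.84, limma adjusted p = 0.25). The 3 in dBRD9-A were RPS14, RPL11 (-0.56, limma adjusted p = 0.14) and the RPS19 region inside the gene (-0.79, limma adjusted p = 0.16).

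The value at RPS14 belonged to a site upstream of the start. The region spanned 420 bp at chr5:149829279-149829698, and its strongest summit lay upstream of the 5′ end of the gene in all 12 libraries, at positions from -323 to -299 bp. A separate, weaker peak with its summit between 32 bp before and 4 bp after that end was listed in 6 libraries. These were 3 of 3 GFP DMSO libraries (pileups 7, 6 and 7), 2 of 3 GFP dBRD9-A libraries (7 and 13), 0 of 3 SMARCB1 DMSO libraries and 1 of 3 SMARCB1 dBRD9-A libraries (7).

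A further SMARCB1 dBRD9-A library had 1 peak of 400 bp that ran from the upstream site over the start, so that 7 of 12 lists had a peak over the first base. The single peaks were examined after the values at RPS14 were seen. With regions rebuilt from 100 bp to each side of the summits, the upstream site alone gave -0.56 (SE 0.15, limma adjusted p = 0.0084). In the same windows the start site was listed in 3 of 3 GFP DMSO and 0 of 3 SMARCB1 DMSO libraries, and in 2 of 3 GFP dBRD9-A and 1 of 3 SMARCB1 dBRD9-A libraries. The RPS14 sequence above, with its pyrimidine run and the nearer of its 2 ETS cores, covers the start and does not reach as far as the upstream site.

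**Figure D2:**
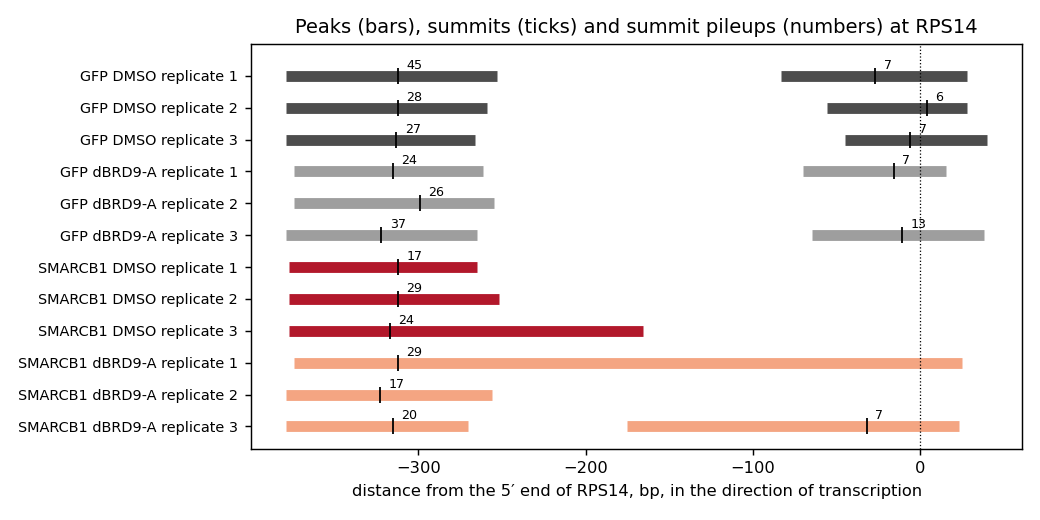
Peaks of the 12 lists (rows, coloured by group) around the 5′ end of RPS14 (x axis, distance in bp in the direction of transcription; dotted line at the end). Bars are peaks, ticks are summits and numbers are summit pileups in fragments. The upstream peak is in every list, with 24 to 45 fragments in GFP and 17 to 29 in SMARCB1 libraries, and a separate peak at the start is in 5 GFP lists and 1 SMARCB1 list.

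RPS3, which also has a role in DNA repair, had the weakest start-site region, of 235 bp at chr11:75110395-75110629. Its summit pileups were 17, 9 and 9 in GFP DMSO, 4, 8 and 15 in GFP dBRD9-A, 4, 9 and 8 in SMARCB1 DMSO and 10, 3 and 9 in SMARCB1 dBRD9-A. The difference of SMARCB1 minus GFP was -0.62 (95% confidence interval -1.18 to -0.050, limma adjusted p = 0.15), with all 6 SMARCB1 libraries below the GFP median. It did not pass, and at 3 to 17 fragments counting error is large.

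RPS6, the substrate of S6 kinase, had a start-site region of 289 bp at chr9:19380166-19380454. Its summit pileups were 38, 25 and 21 in GFP DMSO, 25, 21 and 40 in GFP dBRD9-A, 24, 23 and 25 in SMARCB1 DMSO and 30, 16 and 40 in SMARCB1 dBRD9-A. The groups overlapped and the difference was -0.21 (SE 0.15, limma adjusted p = 0.39).

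RPS19, mutated in Diamond-Blackfan anaemia, had no region over the 5′ end of its given interval in any list. The nearest, chr19:42364323-42364458, lay 335 to 470 bp into the gene and was listed in 5 of 12 libraries with summit pileups of 5, 4, 4, 4 and 2: 2 GFP DMSO, 2 SMARCB1 DMSO and 1 SMARCB1 dBRD9-A library. Absence from a list does not show closed chromatin at this depth. Whether this nearest region lies at a RefSeq start was not tested, as those starts were read on GRCh38. Near the other end of the gene, within its last kilobase, RPS19 had a region in all 12 lists, chr19:42374757-42374949. Its summit pileups were 16, 13 and 20 in GFP DMSO, 22, 22 and 19 in GFP dBRD9-A, 9, 19 and 11 in SMARCB1 DMSO and 17, 7 and 19 in SMARCB1 dBRD9-A. The difference was -0.63 (95% confidence interval -1.09 to -0.17, limma adjusted p = 0.061), which did not pass. It passed in 6 of 22 alternatives, 4 of them fits without 1 library: GFP DMSO replicate 1 (limma adjusted p = 0.027), GFP dBRD9-A replicate 3 (0.015), SMARCB1 DMSO replicate 2 (0.026) and SMARCB1 dBRD9-A replicate 3 (0.046). The others were scaling by the background pileup and a fit with the replicate number as a block.

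Among the nucleolar genes, NCL had a start-site region of 407 bp at chr2:232329120-232329526. Its summit pileups were 63, 30 and 36 in GFP DMSO, 31, 40 and 52 in GFP dBRD9-A, 44, 42 and 52 in SMARCB1 DMSO and 53, 26 and 43 in SMARCB1 dBRD9-A. The difference was -0.04, with a 95% confidence interval from -0.29 to 0.22 (limma adjusted p = 0.89), and 3 of 6 SMARCB1 libraries lay below the GFP median. NPM1 had 388 bp at chr5:170814470-170814857 and pileups of 70, 35 and 34, then 39, 53 and 64, then 48, 42 and 45, then 53, 39 and 41 in the same order of groups. Its difference was -0.19 (95% confidence interval -0.45 to 0.071, limma adjusted p = 0.38).

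The position of the summit was nearly constant for some members and moved for others. At RPL5 it lay between 118 and 88 bp before the 5′ end, at RPL11 between 66 and 42 bp, and at RPS6 between 56 and 24 bp. At RPS3 it lay between 21 bp before and 28 bp after the end. NCL had its strongest summit at a median of -44 bp, but it lay between -189 and -170 bp in 3 libraries, which were replicate 2 of GFP dBRD9-A, SMARCB1 DMSO and SMARCB1 dBRD9-A. In replicate 2 of GFP DMSO it lay at -32 bp. NPM1 had a median of -104 bp and a highest value of 16 bp, and RPL3 a median of -5.5 bp and a lowest of -117 bp. At the start region 7 members had 1 peak in each of the 12 lists, and RPS14 had a pair of peaks in 6 lists.

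Past the 3′ ends lay 3 further regions that were in all 12 lists. The strongest, chr22:39707019-39708079, began 808 bp past RPL3 and was 1061 bp wide. It had summit pileups of 75, 39 and 41, then 43, 32 and 54, then 43, 35 and 48, then 57, 30 and 51 in the same order of groups. The others were chr2:232317414-232318091, 1368 bp past NCL, and chr5:170842007-170842928, 4119 bp past NPM1. Their pileups ranged from 12 to 37 and from 10 to 35. The differences of SMARCB1 minus GFP were -0.18, -0.22 and -0.44, with limma adjusted p-values of 0.39, 0.47 and 0.13. All 6 SMARCB1 libraries lay below the GFP median at the regions past RPL3 and NPM1, and 4 of 6 at the one past NCL, and the groups overlapped at each. Gene annotation of GRCh37 at these positions was not used here.

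**Figure D3:**
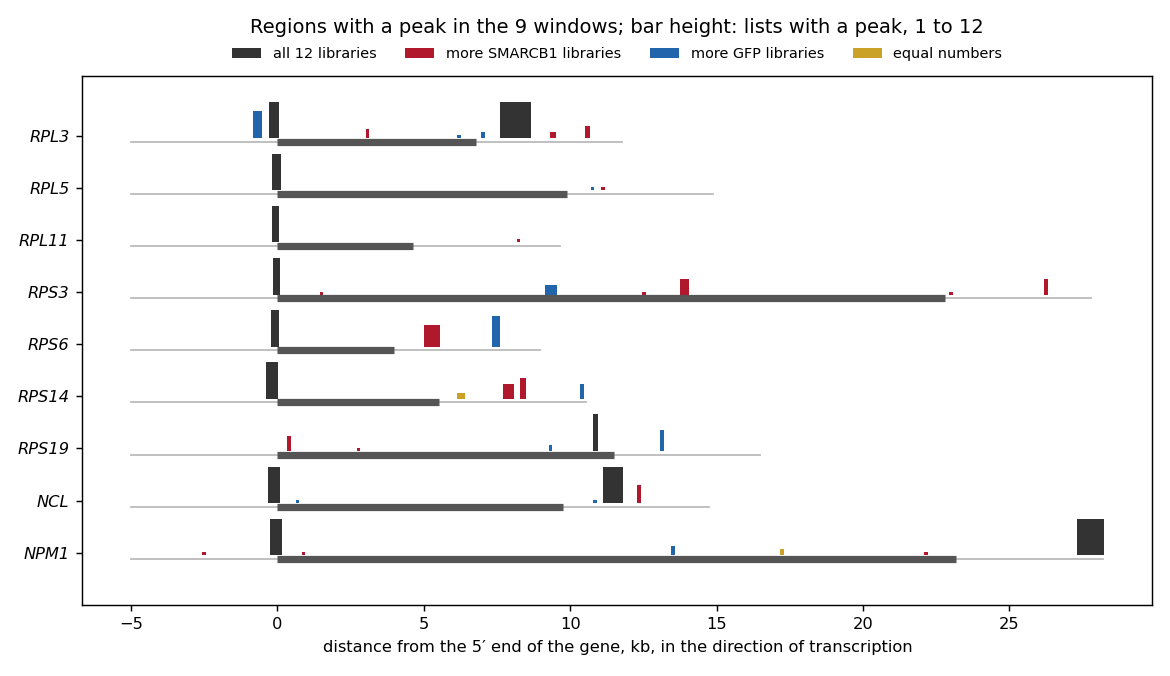
The 45 regions of the 9 windows by distance from the 5′ end of each gene (x axis, kb, in the direction of transcription); the thick line is the gene and the thin line its flanks. The height of a bar is the number of lists with a peak, colours give the balance of SMARCB1 and GFP libraries, and the narrowest regions are widened to be visible. The full height is reached by 12 regions, 8 of them at start sites.

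Over the 12 regions the difference of SMARCB1 minus GFP was below 0 in 12 of 12, with a median of -0.23, where 57.9% of all shared regions were below 0 and the median was -0.06. With 1 called region this is a description of the values and no test of the list. Scaling by the median of ratios, by quantiles, by ranks or by covered bases left 12 of 12 below 0, while the authors' fold left 9 of 12, with RPL3 past its 3′ end, the NCL start and NCL past its 3′ end above 0. In 5 of the 12 fits that left out a library it was 11 of 12, with NCL or RPL3 at its start above 0. Scaling by the background pileup instead moved the median of all shared regions to -0.65 and the members' median to -0.82. All 12 member regions were then called lower, as were 12254 of the 18114, with 490 higher, against 861 lower and 1478 higher on the main scale. Relative to the median of all shared regions, the members' median was -0.18 on the main scale, which scaling by a constant per library leaves as it is, and -0.028 with the authors' fold.

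BRD9 degradation gave no call at the members. Of the 12 regions 0 were called by limma for dBRD9-A against DMSO, where 0.0662% of all shared regions were called. An unadjusted p under 0.05 was found at 0 of the 12, where 1173 of the 18114 had one. These counts of 0 are near those shares and are no result about the list. The log2 differences ran from -0.26 at RPS3 (95% confidence interval -0.83 to 0.31) to 0.24 at the RPS19 region inside the gene (-0.21 to 0.70). The start-site regions of RPS14 (-0.13, interval -0.43 to 0.17), NCL (-0.12, interval -0.38 to 0.135) and NPM1 (0.10, interval -0.16 to 0.36) had the bounds given. Differences inside these bounds cannot be told from 0 here.

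Within GFP cells 0 of the 12 were called for dBRD9-A (0.486% of all shared regions), and within SMARCB1 cells 0 of 12 (0% of all shared regions). Unadjusted p-values under 0.05 numbered 0 in either, where 1406 of the 18114 had one within GFP and 592 within SMARCB1 cells. The interaction, which asks whether the difference with dBRD9-A depends on the induction, was called at 0 of 12 by limma, where 0.00552% of all shared regions were called. For the interaction, 0 of the 12 had an unadjusted p under 0.05, where 901 of the 18114 had. The interaction counts of 0 are near those shares. The interaction values ran from -0.36 at RPL11 (SE 0.31) to 0.44 at RPS3 (SE 0.56).

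**Figure D4:**
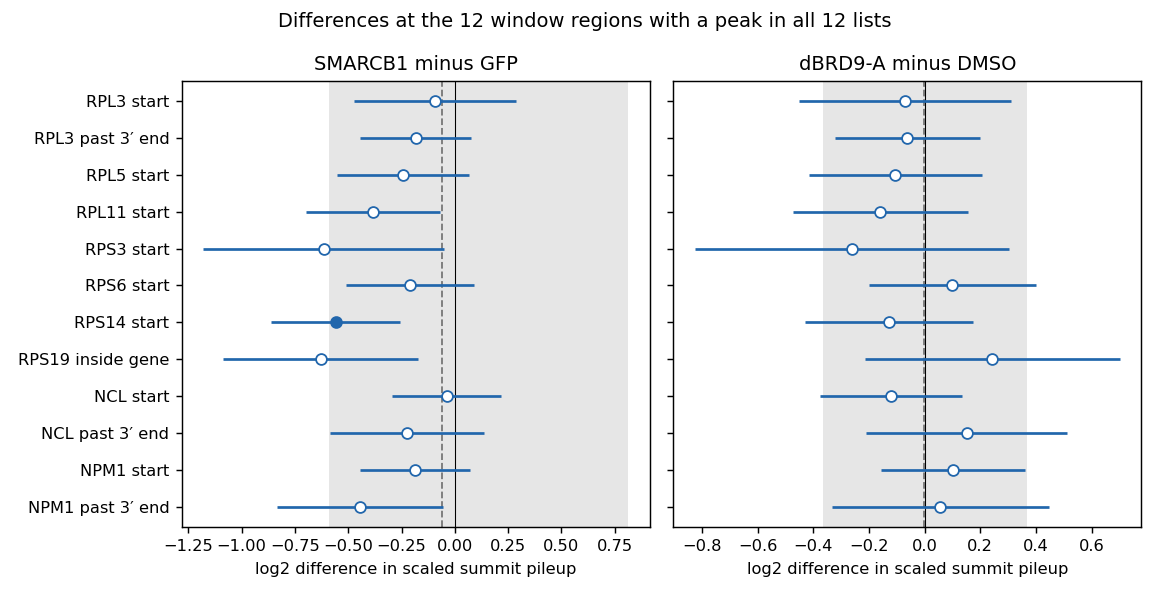
Log2 differences in scaled summit pileup (x axis) at the 12 shared regions of the windows (y axis) for SMARCB1 minus GFP (left) and dBRD9-A minus DMSO (right). Points are limma estimates with 95% confidence intervals, filled where called; the grey band spans the 5th to 95th percentile of all 18114 regions and the dashed line is their median. RPS14 on the left, at -0.56, is the only filled point on this scale. With scaling by the background pileup all 12 regions were called lower, as were 12254 of the 18114.

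The number of peaks at the members did not follow the length of the lists. The whole lists held 38897 ± 6564 peaks (SD, n = 6) in GFP libraries and 84803 ± 9280 in SMARCB1 libraries, a ratio of 2.18. The 9 windows held 21.7 ± 4.50 peaks in GFP libraries and 22.8 ± 3.76 in SMARCB1 libraries, a ratio of 1.05. Bases covered by peaks in the windows were 5125 ± 1421 and 4936 ± 956. Windows at other genes were not counted, so these values cannot be called particular to the members. By gene the ratio of peaks ran from 0.929 at RPS19 to 1.55 at RPS3, where the mean was 1.83 peaks per library in GFP and 2.83 in SMARCB1 cells. At RPS3 the ratio was 1 in DMSO and 2.2 in dBRD9-A, and these ratios were not tested.

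**Figure D5:**
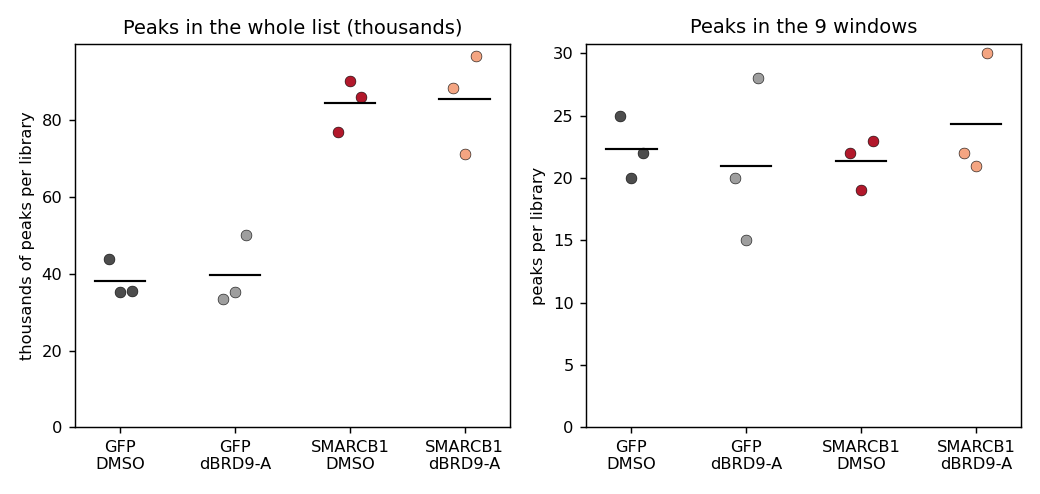
Peaks per library (y axis) in the whole list, in units of 1000 (left), and in the 9 windows together (right), by group (x axis); points are libraries and bars are means of 3. SMARCB1 lists are all longer than GFP lists, and the windows hold 15 to 30 peaks with groups that overlap.

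Most window regions were in only some of the lists. Of the 45 window regions, 26.7% were in all 12 lists, against 9.68% of all regions, and 13 were in a single list. Of the 33 regions below 12 lists, 19 (57.6%) were in more SMARCB1 than GFP lists and 12 (36.4%) in more GFP lists, where the shares over all regions were 78.4% and 17.9%.

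With SMARCB1 in DMSO 1 window region was gained, meaning listed in 3 of 3 SMARCB1 and 0 of 3 GFP libraries, and 0 were lost, where 15% and 0.429% of the 141189 regions listed in either group were. It was chr5:149820838-149821045, 2747 bp past the 3′ end of RPS14. Summit pileups there were 11, 6 and 18 in SMARCB1 DMSO and 14, 7 and 27 in SMARCB1 dBRD9-A, and among GFP libraries only GFP dBRD9-A replicate 3 had a peak, with 17. In dBRD9-A 1 region was gained and 0 were lost, where 13.5% and 0.385% of the 146804 regions listed in either group were. It was chr11:75124269-75124602, inside RPS3, with pileups of 6, 6 and 8 in SMARCB1 dBRD9-A, 4 and 8 in 2 of the SMARCB1 DMSO libraries, and no peak in a GFP library.

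In lists shortened to their strongest 33428 peaks neither region was gained: the RPS14 region was then in 4 of 6 SMARCB1 lists and 1 GFP list, and the RPS3 region in none. The shortening removed more peaks from every SMARCB1 list (71169 to 96572 before it) than from any GFP list (33428 to 50089). In those shortened lists a region upstream of RPL3 was lost in both treatments, chr22:39716209-39716501, from 831 to 539 bp before the 5′ end. In the full lists it was in 6 of 6 GFP libraries with pileups of 15, 10, 9, 10, 8 and 11, and in 3 of 6 SMARCB1 libraries with 10, 7 and 11. Also lost in DMSO in the shortened lists was chr19:42377044-42377193, 1560 bp past RPS19, which the full lists had in 4 GFP and 3 SMARCB1 libraries with pileups from 6 to 17. Over the whole series, 21215 were gained and 605 lost in DMSO with the full lists, and 5585 and 3315 with the shortened ones.

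In the exact permutation test of presence, with induction labels exchanged within treatment, 0 of the 20 window regions tested were called, where 15.6% of all tested regions were. The smallest exact p, 0.005, adjusted to 0.032, and an exact p of 0.02 adjusted to 0.076. Only a region listed in all 6 libraries of 1 induction and in none of the other could therefore pass. Just 1 of the 20 was in 6 lists, past NCL, with 2 GFP and 4 SMARCB1 libraries. The others could not be called, so the 0 is no result about the list. Unadjusted p-values under 0.05 were found at 2 of the 20, the RPS14 and RPS3 regions just named, each with exact p = 0.02 and adjusted p = 0.076. At least the same 15.6% of all tested regions also had an unadjusted p under 0.05, so the count of 2 is not a result about the list. With dBRD9-A 0 window regions went from 3 of 3 to 0 of 3 lists or the reverse, in GFP cells (0.679% of the 70546 regions listed there) or in SMARCB1 cells (0.57% of 165569).

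The other regions in 3 or more lists did not pass in either form. A region 3728 bp past the 3′ end of RPL3, chr22:39704987-39705159, was in 0 of 6 GFP and 4 of 6 SMARCB1 libraries with summit pileups of 11 and 24 in DMSO and 18 and 27 in dBRD9-A (exact permutation p = 0.08, adjusted p = 0.21). Inside RPL3, chr22:39712530-39712655 was in 3 SMARCB1 libraries with 12, 14 and 15 fragments. Inside RPS3, chr11:75119680-75120095 was in 3 GFP libraries with 6, 12 and 9 fragments and in no SMARCB1 library.

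Past RPS6, chr9:19372637-19372904 was in 6 of 6 GFP libraries with pileups from 6 to 22 and in 4 of 6 SMARCB1 libraries with 12, 10, 5 and 21. Past RPS14, chr5:149818857-149818968 was in 4 GFP libraries with 13, 11, 9 and 19 fragments and in 1 SMARCB1 library with 8. The libraries that held these regions differed from gene to gene, and at 3 against 3 libraries a single treatment cannot give an exact p below 0.1.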

How the data were processed

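The deposited lists give for each peak its position, an integer score, the fold (a ratio of summit pileup to local background) and −log10 of the p and q values, all written by the authors' peak caller; the authors' score was not used. Per the submitters' processing notes the build was hg19, and MACS2 2.1.1.20160309, BWA 0.7.12-r1039, SAMtools 1.2 and bedtools 2.24.0 were named without role; the filter on peaks is not given in the sources used here.

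Summit pileup and background were recovered from fold and p (pseudocount 1, whole numbers for 100% of peaks within a tolerance of 0.001 in −log10 p). Peaks of all lists were merged at 1 bp overlap. Log2 scaled pileups of the 18114 regions in all 12 lists were fitted with limma 3.58.1 (R 4.3.3; 4 group means, eBayes with trend), with Benjamini-Hochberg adjustment over all of them and a threshold of 0.05; the fit was tested on simulated data. Regions in 2 to 10 lists were tested by exact permutation of presence within treatment (400 arrangements, two-sided, smallest p 0.005). All 9 members were named, with every region in all 12 lists, gained or lost; the RPL3 upstream region, the RPS14 peaks and the RPS19 start were described after their values were seen. The start-site region was the one over the 5′ end, or the nearest within 1 kb. Members, lists and tests were chosen with earlier results of these data known. Other ribosomal genes and GRCh37 annotation were not analysed here.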

Additional observations from a re-analysis of the deposited data

How the results depend on the processing

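For SMARCB1 against GFP, 1 of the 8 start-site regions was called, that of RPS14, whose value came from the site upstream of its start. The count was kept by 19 of 22 alternatives. It became 8 with scaling by the background pileup, 0 with covered bases and 0 with windows of 100 bp, where the RPS14 start and upstream sites were separate regions and the start was not in all 12 lists. It was 1 in all 12 fits that left out a library. For dBRD9-A and for the interaction the count was 0 under all 22 alternatives. Regions called among all were 2339, against 12744 with background scaling, 1473 with −log10 q of at least 5 and 1113 with covered bases. Of 261 values at single regions under alternatives to SMARCB1 against GFP, 244 kept their side of the threshold, 16 gained and 1 lost the call.

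Replicate numbers are shared by the groups. Same-numbered libraries deviated together with correlations from 0.048 to 0.23, above 0.1 in 11 of 18 pairs, and 12 of 12 libraries correlated best with their own number, which is a hint from the data and not the design. Serial numbers in the sample titles also run together for libraries that share a replicate number; their meaning is not given in the labels. With the replicate block 1 start-site region was called, as without it, the RPS19 region inside the gene passed (limma adjusted p = 0.043), and 2869 regions were called in all. The presence test under the replicate block gave 0. The block changed no other call at the members.

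Gained or lost regions in DMSO numbered 1, against 2 with lists of equal length (both lost, at RPL3 and RPS19), 2 with windows of 100 bp (1 gained and 1 lost, both at RPS14, the lost one at the start), 4 by at least 2 of 3 against 0 of 3, and 1 to 4 with a library left out (2 without GFP DMSO replicate 2 or SMARCB1 DMSO replicate 2, 4 without SMARCB1 DMSO replicate 3). In dBRD9-A they numbered 1, against 0 with −log10 q of at least 5, 2 with presence by 50% cover, 4 by at least 2 of 3 against 0 of 3, and 1 to 2 with a library left out (2 without GFP replicate 2 or 3, or SMARCB1 replicate 1 or 2). With lists of equal length the presence test called 1 region, upstream of RPL3 (exact permutation, adjusted p = 0.044). In the full lists the same region had an exact permutation p of 0.2. The shortening removed more peaks from the SMARCB1 lists than from the GFP lists. The share of all regions called in these shortened lists is not given here, so this count is not a result about the list of genes. The shares of all regions gained or lost under each alternative are not given here either. Changes in the numbers gained or lost are therefore no result about the list of genes. The cause of any of these changes was not tested. Low pileups, as at RPS3, and absence of weak regions are limited by depth.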
